A study of Mus musculus with 36 samples.

Results

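The proteasome is the protease complex that cells use to break down proteins tagged with ubiquitin. Its genes were collected from the expression table by name. A row was taken when its symbol began with Psma, Psmb, Psmc, Psmd or Psme followed by a digit, which gave 44 rows, and 1 row of a pseudogene was left out. The remaining 43 genes, of 12762 in the table, are described here. By known role they are 7 genes of the alpha ring, 4 structural, 3 constitutive catalytic and 4 tissue-specific or inducible catalytic genes of the beta ring, 6 ATPases and 3 other genes of the 19S base, 8 genes of the 19S lid, 3 chaperones of 19S assembly and 4 activators. The last row, Psmc3ip, matched by its letters only. It encodes a meiotic recombination factor and no part of the proteasome, and it is kept in the counts because the naming rule took it, with the counts at 24 h also given without it.

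The 20S core is a barrel of stacked rings in which the alpha rings form the gated ends and the inner beta rings carry the protease sites. The 19S particle caps the barrel, where its lid removes ubiquitin and its ATPase ring unfolds the substrate and feeds it into the core. In lymphoid cells the constitutive catalytic subunits can be replaced by immunoproteasome subunits, which interferon raises and which favour peptides for display on MHC class I molecules, and other activators can take the place of the 19S particle.

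Messenger RNA was measured in B3, an established mouse pre-B cell line, in 36 libraries. Ikaros cells had been transduced with an MSCV retroviral vector that encodes HA-tagged wild type Ikaros fused to the ERt2 hormone-binding domain, then an IRES and GFP, and control cells with the same vector without Ikaros, so both lines carry ERt2 and GFP. Each line was one transduced population rather than a set of clones or animals, and both received the drug 4-OHT (4-hydroxy-tamoxifen, at 0.5 uM), which moves the fusion protein into the nucleus. Cells were collected at 0, 2, 6, 12, 18 and 24 h with 3 libraries per line and time. The labels list the drug dose for the 0 h libraries as well, whereas the methods describe 0 h cells without drug and collected on separate occasions, so a comparison with 0 h also compares occasions. The labels number the batches 1, 2 and 4 at 0 h and 1, 3 and 4 later, and library values below are given in that order. Per the methods, a batch repeats the time course after a thaw of cells of the same line and serves as a biological replicate, so the p-values measure the spread between repeats within one population per line.

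All values are log2 expression as the authors normalized it, corrected for transcript length and GC content, so that levels can be compared between genes on this scale. A difference is Ikaros minus control, and a gene was called at a Benjamini-Hochberg adjusted p under 0.05 in limma, fitted over all 12762 genes. The methods name a read number that was aimed for, but the table holds no counts, so the depth reached by each library is unknown. In bulk RNA fewer cells of a type and less RNA per cell cannot be told apart. As the check of the labels, Ikzf1 lay 5.19 ± 0.18 (SE) higher in Ikaros cells at 0 h and 6.10 ± 0.18 higher at 24 h, and reads from the vector and from the cell's own gene are not separated. Of 10 pre-B cell markers all had a row and 6 were at or above the median gene level, while Dntt lay at the 16.7th percentile. No marker of T cells or stromal cells had a row, of 4 in each list. Of 4 myeloid markers 2 had a row, both low. Itgam, a myeloid integrin, ranged from 3.72 to 6.76 in control and from 3.66 to 9.99 in Ikaros libraries and differed by 4.24 at 24 h, and Lyz2, lysozyme, differed by -2.94. At 0 h 1 of the 2 myeloid markers with a row was already called higher in Ikaros cells. Of 4 erythroid markers only Hbb-b1 had a row, with a difference of 0.57 at 24 h that was not called. Its differences of -2.02, -2.13 and -1.25 at 0, 2 and 6 h were called. The part of these markers in the results was not tested.

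Proteasome genes were among the most abundant transcripts of these cells. Their median level over the 36 libraries was 14.57, against 11.72 for all genes, and 39 of 43 lay at or above the 75th percentile. Psmb1, a structural beta subunit, was the highest at 16.82, followed by the alpha subunit Psma2 at 16.31 and the chymotrypsin-like subunit Psmb5 at 16.16. The lowest was Psmb11, the catalytic subunit made in the thymic cortex, at 5.35 and the 1.69th percentile, with single libraries between 3.88 and 7.97. Psmc3ip and the chaperones Psmd10 and Psmd9 were the other members under the 75th percentile, at 11.46, 11.60 and 12.88. The transcripts were short, with a median length of 1907 bases for the longest transcript of each gene against 3071 over all genes.

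Most proteasome genes were lower in Ikaros than in control cells by the end of the time course, by modest amounts. At 24 h, 23 members were called lower and 3 higher, and 17 were not called. Without Psmc3ip these counts were 22, 3 and 17. In all, 26 of 43 members (60.5%) were called, against 62.9% of all genes, and lower calls made up 53.5% of members against 31.9% of all genes, with higher calls at 6.98% against 31.0%. The median difference over the members was -0.36, against -0.0055 over all genes. Only 3 members were called with a difference of at least 1 in size, Psme3, Psma3 and Psmd3, where 32.7% of all genes were. The median size of the difference without its sign was 0.364 for the members and 0.678 for all genes. In 33 members all 3 Ikaros libraries lay below all 3 control libraries at 24 h and in 3 members all lay above, where 36.1% and 35.0% of all genes did so. Within the batches the median difference over members was -0.40, -0.33 and -0.40 at 24 h. The count of 26 fell to 17 without replicate 2 (batch 2 at 0 h and batch 3 later), of which 16 were lower and 1 higher. For this and the other alternative fits below, the shares of all genes called are not given. Whether a shift in such a count was particular to the members was not tested.

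The difference built up over time from a small start. Before induction, at 0 h, 3 members were called, all lower in Ikaros cells, against 8.33% of all genes, and 1 member was called at 2 h against 19.1% of all genes. The share of all genes called lower was 3.72% at 0 h and 9.88% at 2 h. At 6 h 7 members were called, 2 higher and 5 lower, where 37.3% of all genes were, 18.1% higher and 19.2% lower. By 12 h there were 17, 3 higher and 14 lower, beside 45.8% of all genes, 23.0% higher and 22.8% lower. By 18 h there were 21, 2 higher and 19 lower, beside 58.2% of all genes, 29.0% higher and 29.2% lower. The median over members was -0.04 before induction, then 0.01, -0.10, -0.10 and -0.33 after 2, 6, 12 and 18 h. The sign differed between batches at 12 h, with a median of 0.12 in batch 1 against -0.18 in batch 3 and -0.25 in batch 4. The early counts rested on few libraries. A replicate block for the culture batch called 11 members at 6 h, and 13 with blocks of their own for the 0 h cultures. The 37.3% of all genes above belongs to the fit without a block and is no background for these 2 counts. Without replicate 1 or without replicate 2 the 6 h count was 3, and the 12 h count was 9 without replicate 2. No member was called at 0 h or at 2 h without replicate 1 or without replicate 2, and at 2 h 2 were called without replicate 3.

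**Figure D1:**
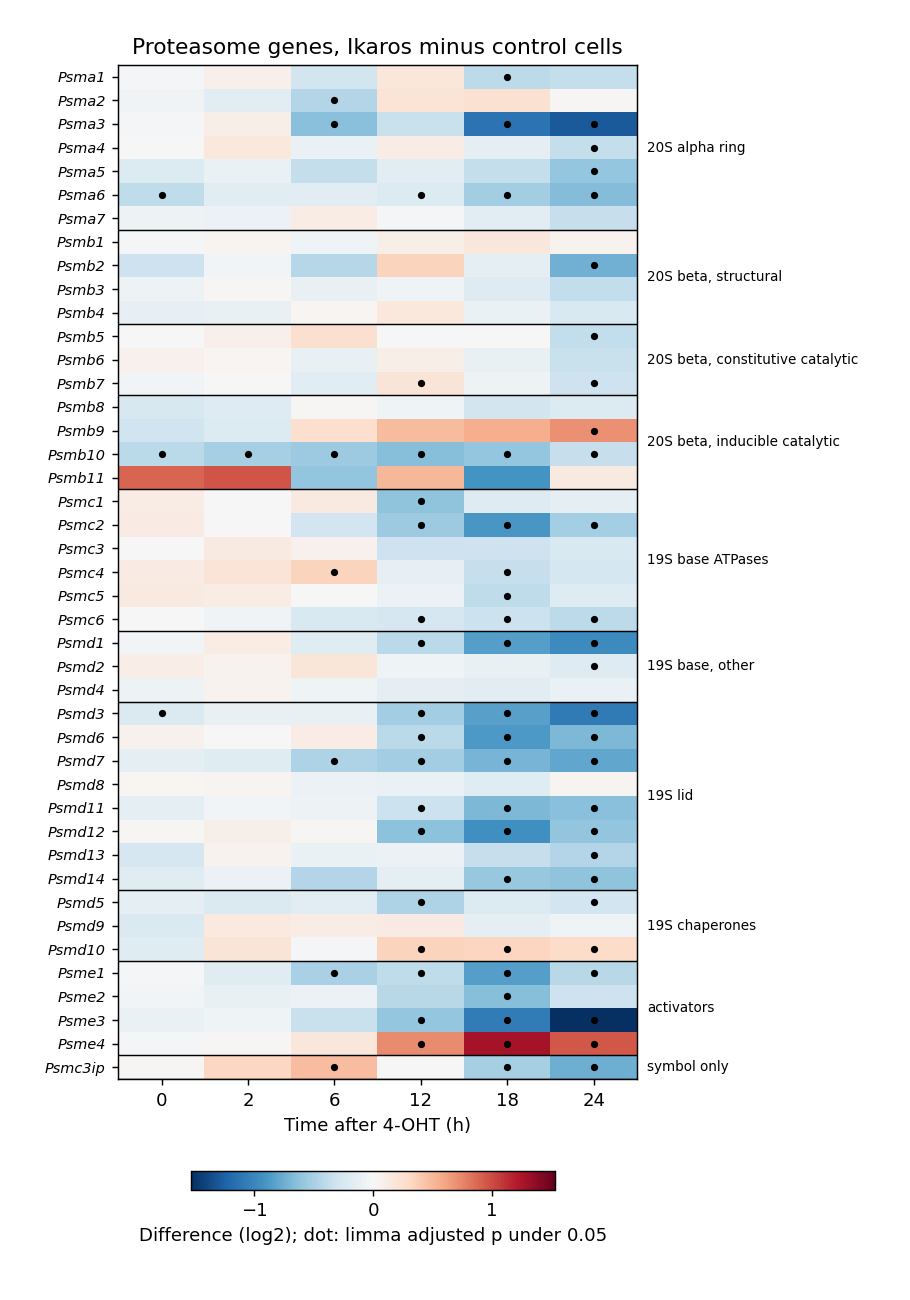
Log2 difference between Ikaros and control cells for each of the 43 genes (rows, grouped by role) at each time after 4-OHT (columns, h), with blue for lower and red for higher in Ikaros cells and a dot where the limma adjusted p was under 0.05. Blue cells with dots gather in the 19S lid and in the later columns, and Psme4 is the darkest red, at 1.28 at 18 h.

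The alpha ring is the outer part of the core that opens or shuts the channel. At 24 h 4 of its 7 genes were called lower and none higher, beside 31.9% and 31.0% of all genes. Its median was -0.36. Psma3, an alpha subunit, read 13.87, 14.01 and 14.40 in control cells at 24 h and 12.67, 13.01 and 12.77 in Ikaros cells. The Ikaros libraries all lay below the control libraries, by 1.28 ± 0.20 (SE, adjusted p = 3.06e-06), a 2.43-fold lower level. Psma3 was also called lower at 6 h (-0.64) and 18 h (-1.13) but not at 12 h (-0.34, adjusted p = 0.166). The 6 h call was lost without replicate 1 (adjusted p = 0.187) and without replicate 2 (adjusted p = 0.0564). Psma2, the alpha subunit with the highest difference, read 16.28, 16.45 and 16.80 in control and 16.65, 16.54 and 16.38 in Ikaros cells at 24 h. These ranges overlapped, and the difference was 0.02 ± 0.17 (SE, adjusted p = 0.937). Psma6 (-0.67), Psma5 (-0.59) and Psma4 (-0.36) were the other alpha genes called at 24 h, and Psma6 was one of the 3 members already lower at 0 h (-0.39). Psma1 and Psma7 had differences of -0.36 and -0.35 that were not called (adjusted p = 0.067 and 0.055), but both were called once culture batch entered as a replicate block (adjusted p = 0.0272 and 0.0212). The calls of Psma4 and Psma5 were lost without replicate 2 (adjusted p = 0.141 and 0.0506).

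Among the structural beta subunits, which hold the inner rings together without cutting peptides, only Psmb2 was called at 24 h, of 4. It was called lower, as were 31.9% of all genes. Psmb2 read 15.78, 15.74 and 16.49 in control and 15.28, 15.37 and 15.14 in Ikaros cells, so that the control library of batch 4 stood above the other two. The difference was -0.74 ± 0.26 (SE, adjusted p = 0.0155), and it was -0.43 without replicate 3 (adjusted p = 0.0858) and -0.86 without replicate 1 (adjusted p = 0.056). In Ikaros cells Psmb2 averaged 15.29 at 0 h and 15.26 at 24 h, and in control cells 15.61 and 16.00. Psmb1, at 16.81, 16.89 and 16.83 in control and 16.91, 16.84 and 16.92 in Ikaros cells, overlapped between the lines with a difference of 0.05 ± 0.10 (SE, adjusted p = 0.686). It was not called at any time, and its differences stayed between -0.06 and 0.18. Psmb3 and Psmb4 differed by -0.37 and -0.23 without a call, and Psmb3 was called with the replicate block (adjusted p = 0.0138).

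The catalytic beta subunits come as exchangeable pairs, in which Psmb8, Psmb9 and Psmb10 of the immunoproteasome take the places of Psmb5, Psmb6 and Psmb7. All of these were above the 75th percentile of level here. In control cells at 24 h the constitutive Psmb5 (chymotrypsin-like) read 16.22, 16.14 and 16.34, Psmb6 (caspase-like) 15.36, 15.37 and 15.52 and Psmb7 (trypsin-like) 14.94, 15.13 and 15.03. The Ikaros libraries read 15.90, 15.81 and 15.85 for Psmb5, 14.94, 15.24 and 15.06 for Psmb6 and 14.68, 14.80 and 14.67 for Psmb7. Each Ikaros library lay below each control library for all 3 genes. Psmb5 fell short of control by 0.38 ± 0.13 (SE, adjusted p = 0.0152) and Psmb7 by 0.31 ± 0.08 (SE, adjusted p = 0.00124). Both calls were lost without replicate 2 (adjusted p = 0.0817 and 0.0556) and that of Psmb5 also without replicate 3 (adjusted p = 0.0932). The Psmb6 difference, -0.34 ± 0.15 (SE), was not called (adjusted p = 0.0592) but passed with the replicate block (adjusted p = 0.0154). Psmb7 was higher in Ikaros cells at 12 h by 0.20 (adjusted p = 0.0396), but no fit that omitted a replicate kept that call.

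The 3 immunoproteasome subunits went different ways. Psmb9 read 13.75, 13.21 and 13.59 in control cells at 24 h and 14.14, 14.43 and 14.10 in Ikaros cells. All Ikaros libraries lay above all control libraries, by 0.70 ± 0.25 (SE, adjusted p = 0.0179), a 1.63-fold higher level, with the widest gap in batch 3. Without replicate 2, which holds that batch, the difference was 0.45 (adjusted p = 0.223). Psmb9 started from the other side, with 13.72, 13.51 and 13.44 in control and 13.58, 13.23 and 12.96 in Ikaros cells at 0 h, a difference of -0.30 that was not called (adjusted p = 0.59). The differences in between were -0.21, 0.25, 0.48 and 0.55 at 2, 6, 12 and 18 h, none of them called. Psmb10 was lower in Ikaros cells at every time. It read 14.22, 14.13 and 14.31 in control and 13.77, 13.78 and 13.88 in Ikaros cells at 0 h, and 14.26, 14.25 and 14.52 against 14.06, 14.01 and 13.89 at 24 h. The lines did not overlap at either time, and the difference was -0.41 at 0 h (adjusted p = 0.0232), -0.65 at 12 h (adjusted p = 4.59e-05) and -0.36 at 24 h (adjusted p = 0.00917). The change of this difference from 0 h to 24 h was 0.06 ± 0.16 (SE, adjusted p = 0.801). The calls of Psmb10 at 0 h and 2 h were lost without replicate 1 (adjusted p = 0.272 and 0.159) and without replicate 2 (adjusted p = 0.27 and 0.0754), and that at 24 h without replicate 3 (-0.22, adjusted p = 0.112). Psmb8 read 15.25, 15.04 and 15.15 in control and 14.97, 15.03 and 14.83 in Ikaros cells at 24 h, a difference of -0.21 ± 0.13 (SE) that was not called (adjusted p = 0.184), nor was it at any other time. Psmb11 overlapped between the lines at 24 h, at 4.62, 5.04 and 5.07 against 4.72, 5.53 and 4.88, and its differences ran from -0.92 to 0.96 over the times with an SE of 0.64 and no call.

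The balance of each immunoproteasome subunit against the constitutive subunit it replaces was taken as a log2 ratio within each library. Psmb9 over Psmb6 was -1.64 ± 0.16 in control and -2.01 ± 0.29 in Ikaros cells at 0 h (SD, n = 3 each). At 24 h it was -1.90 ± 0.27 in control and -0.86 ± 0.09 in Ikaros cells, so that the ratio differed by 1.04, with differences between 0.81 and 1.34 within the batches. The libraries of the lines did not overlap in this ratio at 12, 18 or 24 h, where the differences were 0.38, 0.67 and 1.04. An exact two-sided permutation test gave p = 0.1 at each of these times, the smallest that 3 against 3 libraries allow, and 0.2 after adjustment over 18 tests. Psmb10 over Psmb7 was lower in Ikaros cells by 0.37 at 0 h, 0.85 at 12 h and 0.04 at 24 h, where the libraries overlapped (exact p = 0.7). Psmb8 over Psmb5 did not overlap between the lines at 6 h and 18 h, where it differed by -0.23 and -0.28 (exact p = 0.1 at each), and overlapped at the other times, with -0.26 at 0 h and 0.18 at 24 h (exact p = 0.2 at each). None of the 18 ratio tests could reach 0.05 at this number of libraries.

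**Figure D2:**
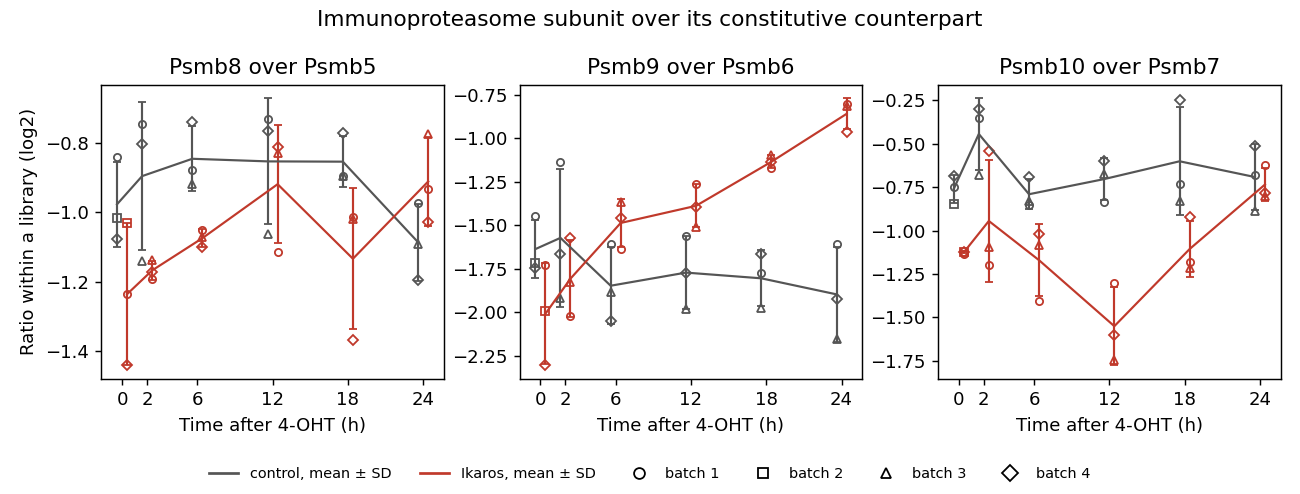
Log2 ratio of each immunoproteasome subunit to its constitutive counterpart within each library (y axes, which do not start at 0) against time after 4-OHT (x axes, h). Symbols are libraries by batch, lines join group means and bars are the SD of 3 libraries. In the middle panel the Ikaros mean goes from below that of control at 0 h (-2.01), where the libraries overlap, to above it at 24 h (-0.86), where they do not.

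Promoter windows of 250 bases before to 50 bases after the transcript start were read for these genes from RefSeq on GRCm38.p6, where 37 of 43 members had a window. Those of Psmb9 and Psmb6 are shown because their ratio moved most among the 3. Capitals mark matches, on either strand, to the core of the antioxidant response element (TGACNNNGC), which NRF factors bind, the Ikaros core (GGGAA, or TTCCC on the other strand), the interferon-stimulated response element (GAAA, any 2 bases, then GAAA again) and the gamma-activated site (TTCNNNGAA). A GGGAA can lie inside a gamma-activated site, as in Psmd2 and Psmb8. The Psmb9 window, chr17:34187281-34187580 on the reverse strand, held 2 Ikaros cores, and the Psmb6 window, chr11:70525107-70525406 on the forward strand, held 2 Ikaros cores and an antioxidant response core 9 bases before the start. Psmb9 lies head to head with Tap1, which encodes a chain of the peptide transporter of class I presentation, and 275 of the 300 bases of its window belong to the Tap1 window as well. The exons of Psmb9 and Tap1 share 212 bases on opposite strands. The libraries were made by a dUTP protocol, which keeps the strand, but whether the gene counting used it is not given in the sources used here, and without it part of the reads of either gene could be counted for the other.
Psmb9: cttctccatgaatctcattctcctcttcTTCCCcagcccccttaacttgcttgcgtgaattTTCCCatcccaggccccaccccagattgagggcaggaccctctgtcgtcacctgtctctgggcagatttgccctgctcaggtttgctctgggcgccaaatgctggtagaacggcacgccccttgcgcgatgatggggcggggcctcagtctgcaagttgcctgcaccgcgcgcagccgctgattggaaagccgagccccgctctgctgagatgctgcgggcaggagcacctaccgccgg
Psmb6: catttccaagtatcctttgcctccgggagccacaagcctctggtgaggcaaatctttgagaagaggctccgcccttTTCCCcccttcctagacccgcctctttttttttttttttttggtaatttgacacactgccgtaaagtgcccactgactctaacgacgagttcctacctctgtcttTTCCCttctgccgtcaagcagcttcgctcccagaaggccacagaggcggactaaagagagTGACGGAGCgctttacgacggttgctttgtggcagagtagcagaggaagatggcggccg

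Over all members with a window, the Ikaros core was found in 62.5% of 40 windows, against 62.7% of the 32851 windows of all genes. The antioxidant response core was in 15% of member windows and 12.4% of all. It occurred in Psmb5, Psmb6, Psmc6, Psmd9, Psmd12 and Psme4. The interferon-stimulated response element was in 10% against 3.44%, in Psmb3, Psmd4, Psmd9 and Psme1, and the gamma-activated site in 5% against 8.30%, in Psmb8 and Psmd2. A match of these letters is a description and no evidence of binding.

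The ATPases of the 19S base form the hexameric motor that unfolds substrates. Of these 6 genes, 3 were called lower at 12 h, 4 at 18 h and 2 at 24 h. The shares of all genes called lower at these times were 22.8%, 29.2% and 31.9%. All 6 ATPase genes had a negative difference at each of these times, with medians of -0.28, -0.34 and -0.25. Psmc2 and Psmc6 were called at all of these times. Psmc2 read 14.58, 14.73 and 14.63 in control and 14.00, 14.28 and 14.09 in Ikaros cells at 24 h, below control in every library, by 0.52 ± 0.14 (SE, adjusted p = 0.00205). Its difference was larger at 18 h, -0.90 (adjusted p = 4.11e-06). Psmc6 differed by -0.40 at 24 h (adjusted p = 0.00083), but by -0.27 without a call once the trend with GC content and length had been removed from each library (adjusted p = 0.0779). Psmc1 read 15.22, 15.41 and 15.05 in control and 15.00, 15.00 and 15.23 in Ikaros cells at 24 h, with overlap and a difference of -0.15 (adjusted p = 0.389), although it had been lower by 0.61 at 12 h (adjusted p = 0.00154). Psmc4 was higher in Ikaros cells at 6 h by 0.34 (adjusted p = 0.036), lower at 18 h by 0.36 (adjusted p = 0.017), and at 24 h its difference of -0.27 was called only with the replicate block (adjusted p = 0.0431) and without replicate 3 (adjusted p = 0.026).

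Of the other base genes, Psmd1, a large scaffold on which substrates and regulators dock, read 14.68, 14.69 and 14.85 in control and 13.67, 13.87 and 13.75 in Ikaros cells at 24 h. The lines were far apart, by 0.98 ± 0.11 (SE, adjusted p = 2.13e-08), a 1.97-fold lower level in Ikaros cells. Psmd2, the other scaffold, was lower by 0.20 (adjusted p = 0.02), which failed without replicate 2 (adjusted p = 0.353) and without replicate 3 (adjusted p = 0.0578). It failed also with only the 24 h groups fitted (adjusted p = 0.103) and after removal of the GC content and length trend (adjusted p = 0.0601). Psmd4, a ubiquitin receptor, read 14.11, 14.11 and 14.44 in control and 13.98, 14.30 and 14.09 in Ikaros cells, which overlapped with a difference of -0.10 (adjusted p = 0.576).

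The lid was the group with the most calls, 7 of 8 genes lower at 24 h, beside 31.9% of all genes. Its median at 24 h was -0.63. At 12 h 5 of its genes were called lower and at 18 h 6, beside 22.8% and 29.2% of all genes. Psmd3, a structural lid subunit, read 15.42, 15.52 and 15.43 in control and 14.37, 14.31 and 14.44 in Ikaros cells at 24 h. The spread within either line was small beside the gap of 1.08 ± 0.07 (SE, adjusted p = 1.62e-13), a 2.12-fold lower level. Psmd3 had differences of -0.53 at 12 h (adjusted p = 2.73e-07) and -0.83 at 18 h (adjusted p = 5.37e-11), and a small one at 0 h, -0.22 (adjusted p = 0.0416), which no fit with a replicate omitted kept. Psmd7, the inactive partner of the deubiquitinase, differed by -0.79 at 24 h, and Psmd14, the deubiquitinase that removes ubiquitin chains from substrates, by -0.62 (adjusted p = 1.7e-07 and 0.0043). The scaffold genes Psmd6, Psmd11, Psmd12 and Psmd13 differed by -0.69, -0.64, -0.61 and -0.45, all called, with that of Psmd13 lost without replicate 1 (adjusted p = 0.093) and without replicate 2 (adjusted p = 0.129). Against 0 h in Ikaros cells 5 of the 8 lid genes were called lower at 24 h, where 29.6% of all genes were. The change of the difference from 0 h to 24 h was also called downward for 5, beside 24.2%. In Ikaros cells Psmd14 averaged 13.75 at 0 h and 13.70 at 24 h, and Psmd13 13.65 and 13.63. In control cells the means were 13.93 and 14.32 for Psmd14 and 13.90 and 14.08 for Psmd13. Psmd8 stood apart from the rest of the lid, at 14.70, 14.87 and 14.54 in control and 14.80, 14.60 and 14.83 in Ikaros cells, with overlap and a difference of 0.04 ± 0.10 (SE, adjusted p = 0.738), and it was called at no time.

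The 3 chaperones that help to build the 19S base showed no common direction. Psmd10, gankyrin, read 11.47, 11.57 and 11.64 in control and 11.84, 11.75 and 11.93 in Ikaros cells at 24 h. All Ikaros libraries were higher, by 0.28 ± 0.11 (SE, adjusted p = 0.0365), after differences of 0.33 at 12 h and 0.32 at 18 h. Each of these 3 calls was lost without replicate 1 (adjusted p = 0.244, 0.143 and 0.251 at 12, 18 and 24 h) and without replicate 2 (adjusted p = 0.324, 0.0731 and 0.113). Psmd5 read 13.69, 13.61 and 13.63 in control and 13.42, 13.40 and 13.24 in Ikaros cells, lower by 0.29 ± 0.10 (SE, adjusted p = 0.0174), which failed without replicate 1 (adjusted p = 0.0748) and without replicate 2 (adjusted p = 0.113). Psmd9 differed by -0.06 without a call.

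The activators held both the largest fall and the largest rise of all members at 24 h. Psme3, which forms the nuclear activator PA28 gamma, read 15.62, 15.86 and 15.71 in control and 14.13, 14.28 and 14.20 in Ikaros cells at 24 h. Every Ikaros library was far below control, by 1.53 ± 0.16 (SE, adjusted p = 5.7e-09), a 2.88-fold lower level. Differences of -0.10 at 0 h, -0.07 at 2 h and -0.35 at 6 h were not called, and those after were, with -0.59 at 12 h (adjusted p = 0.00387) and -1.07 at 18 h (adjusted p = 2.9e-06). The 12 h call was lost without replicate 1 (adjusted p = 0.106). Psme4, which encodes PA200, an activator of ubiquitin-independent breakdown known for its role with histones, moved the other way. It read 14.08, 14.08 and 13.97 in control and 15.20, 14.76 and 15.02 in Ikaros cells at 24 h, all higher than control by 0.95 ± 0.13 (SE, adjusted p = 2.81e-07), a 1.93-fold higher level. At 18 h it read 14.09, 13.92 and 13.58 against 15.17, 15.07 and 15.17, a difference of 1.28 ± 0.13 (SE, adjusted p = 2.04e-09), and at 12 h the difference was 0.72 (adjusted p = 3.28e-05). At 0 h the lines overlapped for both genes, with 15.66, 15.74 and 15.82 against 15.46, 15.58 and 15.86 for Psme3 and 14.17, 14.24 and 14.11 against 14.17, 14.08 and 14.17 for Psme4. No fit that left out a replicate lost the calls of Psme3 or Psme4 at 24 h or 18 h.

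**Figure D3:**
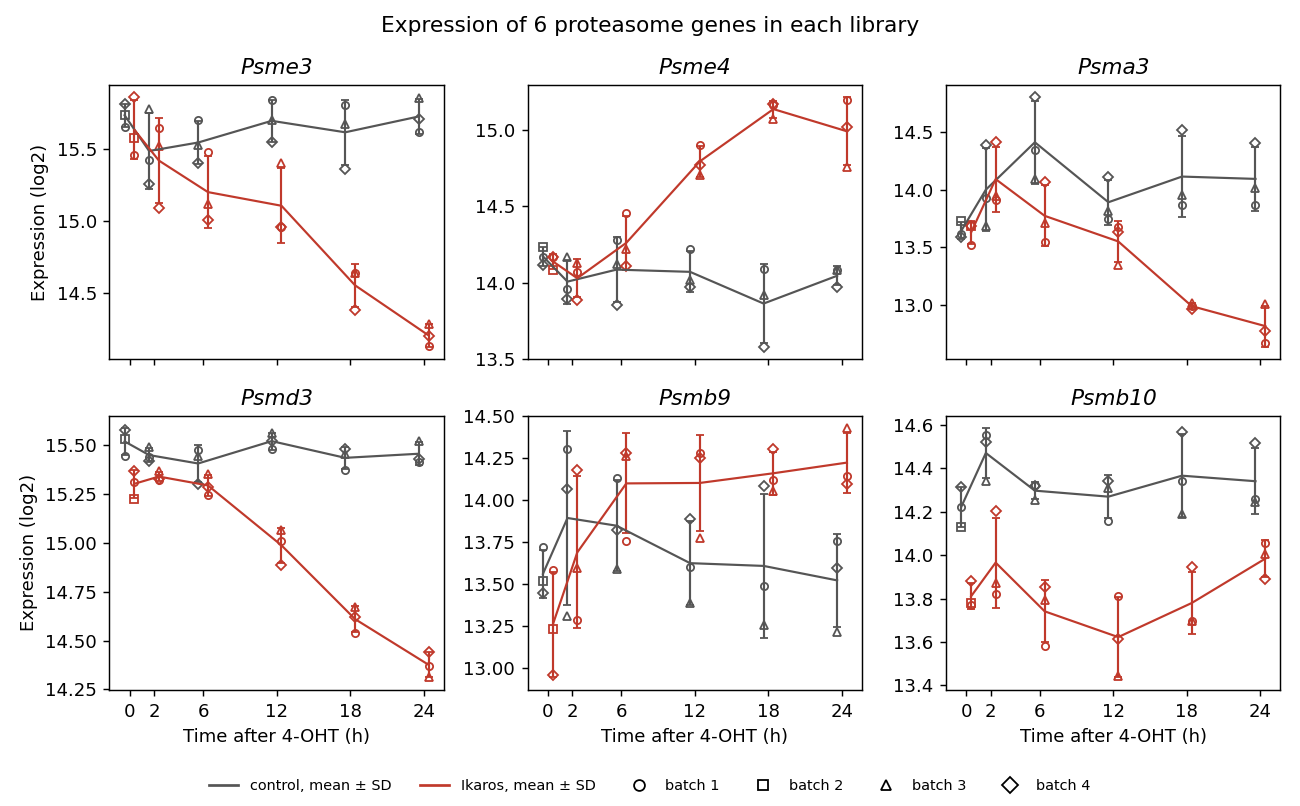
Log2 expression in each library (y axes, which do not start at 0) against time after 4-OHT (x axes, h) for 6 genes. Symbols are libraries by batch, lines join group means and bars are the SD of 3 libraries. Psme3, Psma3 and Psmd3 lie below control at 18 and 24 h, Psme4 lies above it with a difference of 1.28 at 18 h, Psmb9 crosses from below to above control, and Psmb10 is below control at every time.

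The interferon-inducible activator PA28, made of the products of Psme1 and Psme2, was not called higher in Ikaros cells at any time. Psme1 read 13.65, 13.73 and 13.48 in control and 13.12, 13.30 and 13.16 in Ikaros cells at 24 h, lower without overlap by 0.43 ± 0.12 (SE, adjusted p = 0.00218). It was lower at 6, 12 and 18 h too, with the largest difference at 18 h, -0.85 (adjusted p = 5.7e-07). The calls of Psme1 at 24 h and at 12 h were lost without replicate 1 (adjusted p = 0.0631 and 0.0503), and those at 12 h and 6 h without replicate 3 (adjusted p = 0.211 and 0.0505). Psme2 read 13.47, 13.53 and 13.50 in control and 13.02, 13.25 and 13.26 in Ikaros cells at 24 h, without overlap but with a difference of -0.32 ± 0.22 (SE) that was not called (adjusted p = 0.196). With only the 24 h groups fitted it was called (adjusted p = 0.0308), and at 18 h its difference was -0.65 (adjusted p = 0.0115), a call lost without replicate 2 (adjusted p = 0.081). Psmc3ip, the recombination factor, read 11.25, 11.12 and 11.20 in control and 10.40, 10.50 and 10.43 in Ikaros cells at 24 h, lower by 0.75 ± 0.16 (SE, adjusted p = 0.000261), whereas at 6 h it had been higher by 0.47 (adjusted p = 0.0252), which failed without replicate 1 (adjusted p = 0.111) and without replicate 2 (adjusted p = 0.229).

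The promoter windows of Psme3 and Psme4 are shown as those of the members that differed most in either direction. The Psme3 window, chr11:101315963-101316262 on the forward strand, held no match to the 4 motifs, and the Psme4 window, chr11:30771525-30771824 on the forward strand, held an antioxidant response core on the reverse strand 7 bases before the start.
Psme3: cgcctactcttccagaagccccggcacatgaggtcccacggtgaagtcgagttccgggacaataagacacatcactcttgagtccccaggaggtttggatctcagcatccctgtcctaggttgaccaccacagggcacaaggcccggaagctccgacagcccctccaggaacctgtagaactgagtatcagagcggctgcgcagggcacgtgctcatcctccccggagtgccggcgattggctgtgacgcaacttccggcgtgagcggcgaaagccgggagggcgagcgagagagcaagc
Psme4: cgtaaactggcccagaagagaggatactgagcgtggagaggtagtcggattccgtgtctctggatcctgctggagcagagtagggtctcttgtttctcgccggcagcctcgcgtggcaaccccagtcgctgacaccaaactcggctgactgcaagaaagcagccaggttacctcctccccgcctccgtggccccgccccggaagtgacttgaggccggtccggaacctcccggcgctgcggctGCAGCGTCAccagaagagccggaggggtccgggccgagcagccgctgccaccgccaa

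Since the lines differed at 0 h for a few members, the change of the difference over time was tested as an interaction. From 0 h to 24 h it was called for 18 members, 3 upward and 15 downward, against 48.4% of all genes, 24.2% in either direction. The upward changes were 1.01 for Psmb9, 0.98 for Psme4 and 0.46 for Psmd10. The largest downward changes were -1.43 for Psme3, -1.26 for Psma3, -0.94 for Psmd1 and -0.86 for Psmd3. From 2 h to 24 h, which uses no 0 h library, 18 members were called, 2 upward and 16 downward, against 47.3% of all genes (23.3% upward and 24.0% downward), with Psme3 at -1.46 and Psmb9 at 0.91. An F test per gene over all changes from 0 h (moderated, limma) called 19 members, against 59.8% of all genes. None of the 4 tissue-specific or inducible catalytic genes, Psmb9 among them, was called by the F test. The counts were 6 without replicate 2 and 9 without replicate 1 for the first of these tests, 7 and 11 for the second and 8 and 12 for the F test.

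Within the Ikaros line, more members were called lower than higher against 0 h at 18 h and 24 h. At 18 h, however, the share of members called lower was near that of all genes. At 2 h 5 members were called against 0 h, all higher, with 19.2% of all genes called (9.54% higher), and at 6 h 11, 9 higher and 2 lower, with 32.8% (17.1% and 15.6%). The shares of members called higher, 11.6% at 2 h and 20.9% at 6 h, were near those of all genes. The 5 at 2 h were Psma6 (0.22), Psmd1 (0.33), Psmd13 (0.55), Psmd9 (0.59) and Psmc3ip (0.68). Later, 8 were higher and 8 lower at 12 h, where 46.1% of all genes were called (24.0% higher, 22.2% lower). The 18 h libraries gave 3 and 12, with 54.6% of all genes (28.1% and 26.5%), and the 24 h libraries 4 and 17, with 60.6% (31.0% and 29.6%). Members called lower made up 27.9% at 18 h and 39.5% at 24 h, and those called higher 6.98% and 9.30%. At 24 h Ikaros cells had Psme3 at -1.43, Psmd3 at -0.93 and Psma3 at -0.81 against their own 0 h, and Psmb9 at 0.97, Psme4 at 0.85, Psmd10 at 0.44 and Psma2 at 0.42. A replicate block for culture batch gave 11 at 2 h, whereas the fit gave 0 without replicate 2, 1 without replicate 1 and 0 on the compared groups alone. The 6 h and 12 h counts were 2 and 6 without replicate 2, and the 6 h count was 5 without replicate 3.

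Control cells, which carry the vector without Ikaros, had few members called against their own 0 h. limma called no member at 2, 12, 18 or 24 h against 0 h, where 0.0470%, 0.0549%, 0.478% and 0.470% of all genes were called. At an unadjusted p under 0.05 in limma there were 5, 1, 7 and 3 members at these times. Over all 12762 genes there were 1006, 728, 1899 and 1498 at that unadjusted threshold. At 6 h 4 members were higher than at 0 h, against 5.10% of all genes (2.59% higher), namely Psma3 (0.77), Psmd14 (0.62), Psme1 (0.39) and Psma4 (0.35). That count was 14 when culture batch was a replicate block, and 0 on omitting any of the 3 replicates or fitting the compared groups alone. Against 0 h, the median over the members in control cells was 0.15, 0.20, 0.10, 0.15 and 0.07 at 2, 6, 12, 18 and 24 h. In Ikaros cells it was 0.21, 0.20, -0.0040, -0.095 and -0.20 at these times. At 18 h the control median thus lay above 0 h and the Ikaros median below it. The batches differed in the median over members per library, taken against the control mean at 0 h. In control cells it was 0.30, 0.33, 0.20 and 0.30 in batch 4 at 2, 6, 12 and 18 h. Batch 1 gave 0.11, 0.19, -0.03 and 0.05 at these times. In Ikaros cells batch 4 was also highest at 2 h (0.27) and 6 h (0.30), but batch 1 was highest at 12 h (0.08). The Ikaros libraries at each time enter both the comparison of Ikaros cells with 0 h and the comparison with control.

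Genes outside the naming rule that work with the proteasome were read from lists. At 24 h 62.9% of all genes were called, 31.0% higher and 31.9% lower. The other particle and assembly factors, 14 in the table of 17 listed, had 10 genes called lower at 24 h, none higher and a median of -0.88, beside -0.36 for the members. The largest differences were -2.12 for Uchl5, a deubiquitinase bound to the 19S particle, -1.60 for Usp14, the other such deubiquitinase, and -1.41 for Psmg1, a chaperone of alpha ring assembly. Psmf1, the inhibitor PI31, differed by -0.93 and Adrm1, the ubiquitin receptor that anchors Uchl5, by -0.59, both called, whereas Pomp, the maturation factor of the beta rings, differed by -0.09 without a call.

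Of 7 transcription factors and processing factors of proteasome genes, 2 were called higher and 3 lower at 24 h, beside 31.0% and 31.9% of all genes. Nfe2l2, the stress factor NRF2, was higher by 1.58 ± 0.14 (SE), and Nfe2l1, the factor NRF1 that raises proteasome genes when proteasome activity is short, was lower by 0.81 ± 0.16 (SE). Ddi2, the protease that activates NRF1, was lower by 0.52. Of the genes for the promoter factor NF-Y, Nfya was lower by 0.56 and Nfyb higher by 0.27. Of 18 genes in the table for ubiquitin, its activating enzymes and substrate shuttles, 6 were called higher and 5 lower, with a median of 0.06. These counts were near the shares of all genes, 31.0% higher and 31.9% lower. Sqstm1, an autophagy receptor, differed by 1.36 and Vcp, the segregase that extracts proteins for breakdown, by 0.78, while the shuttle genes Ubqln4 and Rad23b differed by -1.14 and -0.72 and the activating enzyme Uba6 by -1.02, all of them called.

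The class I presentation list, which the immunoproteasome feeds, had all of its 11 genes called at 24 h, beside 62.9% of all genes. Of the 11, 7 were higher and 4 lower, with a median of 0.52. Nlrc5, the class I transactivator, was higher by 2.23 ± 0.13 (SE), H2-D1 by 0.99 and H2-K1 by 0.84, and Tap1, the neighbour of Psmb9, by 0.52. The genes called lower were the folding factors Canx (-1.03), Calr (-0.98) and Pdia3 and the peptide trimmer Erap1, both at -0.39. Of 9 interferon response regulators 8 were called higher and none lower, beside 31.0% and 31.9% of all genes. Their median was 1.35, and among the 8 were Irf1 (2.07), Stat2 (1.98) and Ifngr1 (1.46). Among the interferon-inducible members of the proteasome, by contrast, only Psmb9 was called higher at 24 h. Psmb10 and Psme1 were called lower, and Psmb8 and Psme2 were not called. Of the 10 pre-B cell markers, 6 were called higher and 2 lower at this time, beside 31.0% and 31.9% of all genes. The 2 called lower were Vpreb1 (-3.42) and Igll1 (-3.96) of the surrogate light chain.

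**Figure D4:**
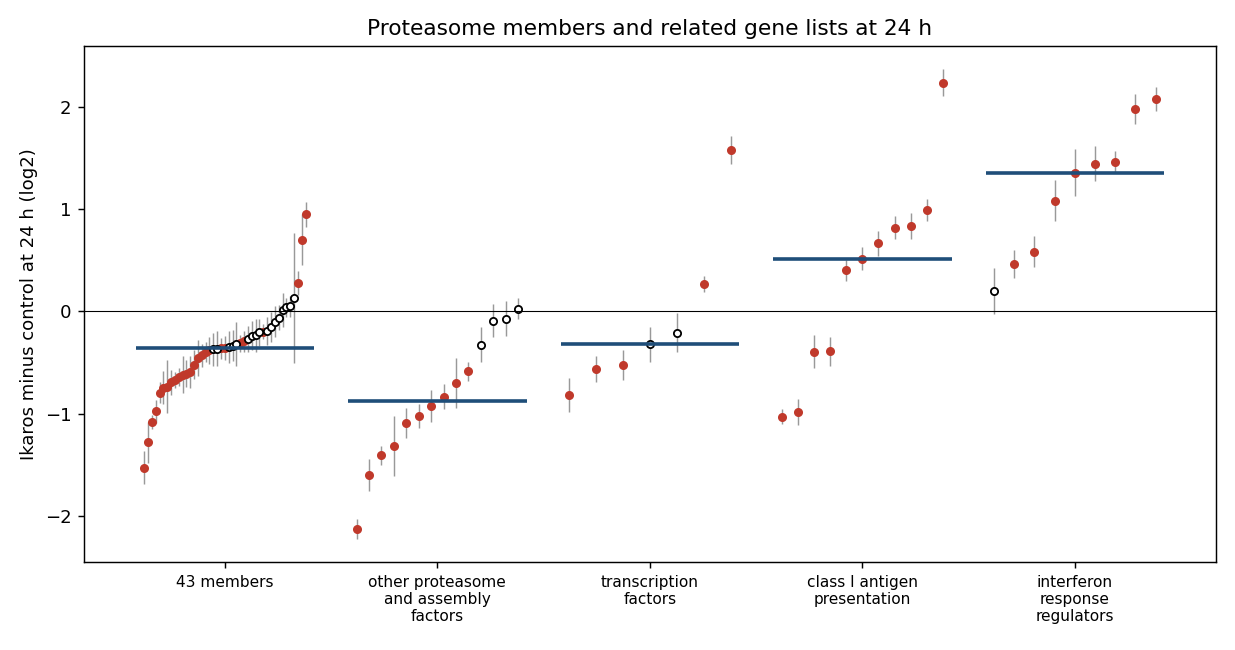
Log2 difference between Ikaros and control cells at 24 h (y axis) for each of the 43 members and for each gene of 4 related lists, sorted within a list, with bars for the SE. Red points were called by limma, open points were not, and blue lines mark medians, which lie at -0.36 for the members, -0.88 for other proteasome and assembly factors and 1.35 for interferon response regulators.

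Exons of 13 members overlap those of another annotated gene. On the opposite strand, Psmb7 shares 405 bases with Nek6, Psmc3ip 385 with Mlx, Psmd13 342 with Sirt3 and Psmc3 215 with Slc39a13. Also on the opposite strand, Psmd9 shares 1849 bases with a noncoding RNA and Psmb8 498 with the antisense gene Gm20496. On the same strand, Psmd1 shares 301 bases with Gm21972 and Psmb5 109 with the microRNA gene Mir686. Values of these members, and of subunits with near-identical processed pseudogenes, are uncertain to the extent that reads were shared.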

How the data were processed

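The authors trimmed the mRNA-seq reads, aligned them to mm10 with TopHat2, counted genes with HTSeq, normalized the counts for GC content and length with cqn and removed preparation effects with ComBat, per their methods and the submitters' processing notes. The libraries were strand-specific. Tool versions, annotation and the strand setting of the counting are not given in the sources used here. The deposited values are log2 expression shifted so that the lowest value in the table is 1. The base of the logarithm is taken from cqn. A read number was aimed for per the methods, but the depth reached is unknown from the table, so precision rests on the 3 libraries per group, and because ComBat removed variation before deposition the SE values may be too small. Library medians lay between 11.70 and 11.73, and libraries shared at most 0.384% of identical values. Columns of per-sample values outside the series numbered 0.

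All 12762 genes were fitted in limma 3.58.1 (R 4.3.3; lmFit, contrasts.fit, eBayes, two-sided) with 12 group means, with no filter, with Benjamini-Hochberg adjustment across the whole table. The fit was checked beforehand on artificial data of 12762 genes, with 100 genes changed by a log2 size of 0.5 and 100 by 1. It called 36 and 59 of these, so a member without a call is not shown to be equal in both lines. Far fewer genes were changed there than were called at 24 h in the data, so these rates need not hold for the data. Ratios were compared with exact permutation tests in scipy 1.17.1. The labels give batch numbers only. By the methods a batch is a repeat of the time course, so libraries of the same number and time were taken as pairs. The 0 h cells were obtained separately, so a batch number at 0 h need not mark the same culture as that number later. Across genes, deviations from the group mean correlated within a pair with r from -0.0620 to 0.507 (median 0.127, above 0.1 in 12 of 18 pairs). Over the members alone r ran from -0.542 (batch 1 at 18 h) to 0.770 (batch 4 at 12 h). The main fit left batch out. The alternatives were the batch number as a replicate block, with or without separate 0 h blocks, and a 25th percentile filter on mean level. Others were quantile normalization, eBayes with trend and robust settings, the compared groups alone, and leaving out each replicate. Removal of the GC content and length trend was chosen after seeing the data. Members, gene lists and tests were chosen with earlier results of these data known. Library values were given for the catalytic subunits, the activators and the members with the highest and lowest 24 h difference in each role. Of the other lists, Nfe2l1, Nfe2l2, Pomp, Psmf1, Adrm1 and up to 3 of the highest and lowest called genes were named, and the other genes named there were chosen after their values were seen. Some genes that these rules cover are not reported here. Annotation was GENCODE mouse release 21, and promoter windows were RefSeq on GRCm38.p6.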

Additional observations from a re-analysis of the deposited data

Results flagged for a closer look

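The gap between the lines was compared between times in limma, as an interaction. Its change was called for 18 members between 0 h and 24 h (41.9%, beside 48.4% of all genes). Between 2 h and 24 h it was called for 18 (41.9%, beside 47.3%). The F test over all changes from 0 h called 19 (44.2%, beside 59.8%), and Psmb9 was not among them. From 2 h to 24 h the gap changed by -1.46 for Psme3, -1.37 for Psma3, -1.08 for Psmd1, -1.06 for Psmc3ip, -0.97 for Psmd3, -0.53 for Psmc2 and -0.31 for Psmb7, and by 0.93 for Psme4 and 0.91 for Psmb9. These share the 24 h libraries with the comparisons above. At 0 h the lines were also collected on other occasions, and 2 h to 24 h is free of that. What lies behind the changes was not tested.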

How the results depend on the processing

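Of the differences of single named members across the alternatives, 640 kept their direction and side of the threshold, 62 lost the call, 21 gained it and 6 changed sign, and all 72 recomputed ratios kept within the spread. A replicate block for culture batch gave 11 called members at 6 h, 11 in Ikaros cells at 2 h against 0 h and 14 in control cells at 6 h against 0 h, and no other count moved by over 1.5 times. At 24 h this pairing gained 5 calls and lost 0. With separate 0 h blocks the counts were 2 at 2 h and 13 at 6 h, and this fit could not be estimated within a line. Fitting the compared groups alone gave 0, 1 and 10 for 2, 6 and 12 h, in Ikaros cells against 0 h 0, 2 and 8 for these times, and 0 in control cells at 6 h. The F test was not run there. After removal of the GC content and length trend, 2 members were called in control cells at 6 h. Leaving out each replicate in turn gave 0 to 2 members at 0 h, 0 to 2 at 2 h, 3 to 9 at 6 h, 9 to 13 at 12 h, 14 to 24 at 18 h and 17 to 24 at the end. It gave 6 to 16 for the change from 0 h to 24 h, 7 to 17 from 2 h to 24 h and 8 to 19 for the F test. In Ikaros cells against 0 h it gave 0 to 4, 2 to 10 and 6 to 12 for 2, 6 and 12 h, and 0 to 0 in control cells at 6 h. Where the sign at 24 h changed there was no call. Psma2 was -0.0038 with quantile normalization and from -0.16 to 0.23 when a replicate was left out, Psmb11 from -0.044 to 0.30, Psmd4 from -0.24 to 0.024 and Psmd8 from -0.088 to 0.19. Fits without a replicate use fewer libraries. Otherwise the cause of these shifts was not tested. The shares of all genes called in the alternative fits are not given. The counts of members are thus not shown to shift by more or less than those of all genes. Precision is limited by 3 libraries per group and by a depth that the table does not give.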
